A study of Mus musculus with 6 samples.

Results

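Cytotoxic and tissue-residency genes of intraepithelial lymphocytes were described across 6 RNA-seq libraries of the mouse colon. The set holds 42 genes of the 46078 in the deposited count table, chosen by name: 36 were found under that name in the authors' deposited comparison table and 6 (Ncr1, Ifng, Eomes, Cd244, Tigit and Pdcd1) were looked up by Ensembl identifier in the count table. Cd244 stands in the annotation as Cd244a. Of the 42 genes 41 passed the filter on low counts, and Pdcd1 did not. The libraries came from the colon of mice aged 2 months kept under naive conditions, 3 labelled wild type and 3 labelled Lingo3-/-, a homozygous loss of the gene for a transmembrane protein with leucine-rich repeats. The material was the cell fraction that an EDTA wash lifts off the tissue. The label of the first wild type library adds DTT, those of the other libraries name EDTA alone, and the protocol common to all gives both. The wild type libraries are called WT1 to WT3 and the knockout libraries KO1 to KO3 by their labelled replicate number. No label says whether they are separate animals, so the p-values speak only of the spread among these 6 samples, and part of that spread may be technical. The sources used here do not give how the allele was made.

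Intraepithelial lymphocytes are T cells, of the alpha-beta and the gamma-delta kind, that sit between the epithelial cells of the gut. Many of them hold granules with perforin and granzymes, carry receptors first described on natural killer (NK) cells, and bind E-cadherin of the epithelium through the integrin that Itgae and Itgb7 encode. Interleukin 15 from the epithelium, read through the chain that Il2rb encodes, keeps many of them alive, and the transcription factors T-bet (Tbx21), Eomes and Runx3 drive much of their cytotoxic programme. An epithelial wash of the gut can carry their RNA along with that of the epithelium.

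Upstream sequences are shown first for genes of different roles that are described below, with letters that RUNX and T-box factors are known to bind. RefSeq windows (GRCm38.p6) of 250 bases before the transcription start were found for 32 of the 42 genes, 40 windows in all. The RUNX letters TGTGGT, or ACCACA on the other strand, occurred in 21 of these 40 windows (52.5%), those of 18 genes, against 4614 of 32851 windows of the same length over all genes (14%). The T-box letters TCACACC, or GGTGTGA on the other strand, occurred in 4 of 40 windows (10.0%), those of 4 genes, against 1095 of 32851 (3.33%). These are matches of letters, windows of 1 gene can overlap, and no binding was measured. In the sequences below capitals mark the matches, each sequence runs 5′ to 3′ on the strand of its gene, and bases that lie within the annotated gene are left out.

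Gzma (chr13:113100982-113101231, minus strand): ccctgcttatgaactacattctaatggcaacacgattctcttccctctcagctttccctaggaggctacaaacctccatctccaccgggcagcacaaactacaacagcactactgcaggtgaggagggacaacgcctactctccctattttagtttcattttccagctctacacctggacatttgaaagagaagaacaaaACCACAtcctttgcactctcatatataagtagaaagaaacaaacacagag
Gzmb (chr14:56262335-56262584, minus strand): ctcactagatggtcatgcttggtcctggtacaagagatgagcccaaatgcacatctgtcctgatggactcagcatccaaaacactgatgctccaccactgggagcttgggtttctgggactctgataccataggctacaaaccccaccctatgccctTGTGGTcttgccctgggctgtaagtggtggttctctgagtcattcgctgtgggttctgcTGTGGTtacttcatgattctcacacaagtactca
Xcl1 (chr1:164935528-164935772, minus strand): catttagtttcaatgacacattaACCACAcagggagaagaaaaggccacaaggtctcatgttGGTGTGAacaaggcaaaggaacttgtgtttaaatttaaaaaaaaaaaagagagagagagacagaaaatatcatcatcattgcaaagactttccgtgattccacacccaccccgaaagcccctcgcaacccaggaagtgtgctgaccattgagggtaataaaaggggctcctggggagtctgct
Cxcr6 (chr9:123806227-123806474, plus strand): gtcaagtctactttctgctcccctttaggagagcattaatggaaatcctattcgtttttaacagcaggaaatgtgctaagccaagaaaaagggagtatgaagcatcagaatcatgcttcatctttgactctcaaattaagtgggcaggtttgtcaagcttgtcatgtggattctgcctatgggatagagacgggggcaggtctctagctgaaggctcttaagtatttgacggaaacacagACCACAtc
Klrk1 (chr6:129623865-129624114, minus strand): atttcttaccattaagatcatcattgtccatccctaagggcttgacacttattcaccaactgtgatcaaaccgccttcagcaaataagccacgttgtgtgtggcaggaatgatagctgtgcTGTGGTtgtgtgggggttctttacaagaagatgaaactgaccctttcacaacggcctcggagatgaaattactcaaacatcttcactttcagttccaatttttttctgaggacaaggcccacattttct
Fasl (chr1:161788496-161788745, minus strand): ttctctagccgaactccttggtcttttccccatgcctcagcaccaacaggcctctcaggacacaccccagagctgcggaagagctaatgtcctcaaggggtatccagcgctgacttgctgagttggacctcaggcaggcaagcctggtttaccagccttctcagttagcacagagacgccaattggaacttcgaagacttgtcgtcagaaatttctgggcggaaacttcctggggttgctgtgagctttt

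In Gzma the match begins 50 bases before the start, and Gzmb has matches that begin 93 and 34 bases before it. Xcl1 holds a RUNX match at 227 and a T-box match at 188 bases before the start, and in Cxcr6 the match begins 10 bases before it. Klrk1, which did not pass the test between genotypes, has a RUNX match at 129 bases, and Fasl, which fell, holds neither set of letters in this window.

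Counts over genes ran from 25010618 to 28029583 in the wild type libraries and from 11868000 to 17200931 in the knockout libraries, so that every wild type library was the deeper. Levels are given as CPM, counts scaled to library size with TMM factors, and 3 counts, taken as the floor of measurement, corresponded to 0.113 to 0.240 CPM. Mitochondrial genes took 45.3 to 48.4% of the counts in wild type and 34.7 to 36.3% in knockout. Lingo3 itself had 3, 3 and 1 counts in wild type and 2, 0 and 1 in knockout, at or under the floor in each library, and so does not check the labels. Markers of the labelled epithelial fraction were present: 12 of 12 epithelial genes were detected, from 52.6 CPM for Cdx1 to 1410 CPM for Lgals4 in the wild type mean, with 3 higher and 0 lower in knockout. With library totals 9 of the 12 rose, and with 1 library left out 5 (WT1), 4 (KO1), 2 (WT2, WT3 or KO2) or 1 (KO3) rose.

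The cytotoxic and residency genes were lower in the knockout libraries. Of the 41 tested, 27 fell, 0 rose and 14 did not pass an adjusted p of 0.05 in edgeR's quasi-likelihood test, while 5.97% of the 16856 genes tested fell and 9.43% rose. All 41 had a negative log2 fold change, with a median of -0.98 (-2.42 to -0.21), where the median of all genes was -0.03; with library totals Itga1 alone turned to 0.07. In 34 of the 41 every knockout library lay below every wild type library, a pattern that 16.0% of all genes showed. These genes were chosen with earlier results of these data known, so the shares over all genes stand beside them as description only. The call depended on single libraries: 16 genes fell without WT2 and 15 without KO3. The 15 include Pdcd1, which passed the filter on low counts in that fit. Of the 27 genes, 13 kept their call in each of the 6 fits that left out 1 library. With library totals in place of TMM factors, a scaling that moved the median of all genes to 0.26, 17 fell and 0 rose, and the median of these genes was -0.69. The calls lost under that scaling were those of Gzmk, Klrd1, Ccl5, Tbx21, Runx3, Cd160, Cd96, Lag3, Itgal and Il7r. With nuclear protein-coding genes only 27 fell, and with all libraries thinned to the smallest 24 fell, without the calls of Gzmk, Lag3 and Il7r.

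**Figure D1:**
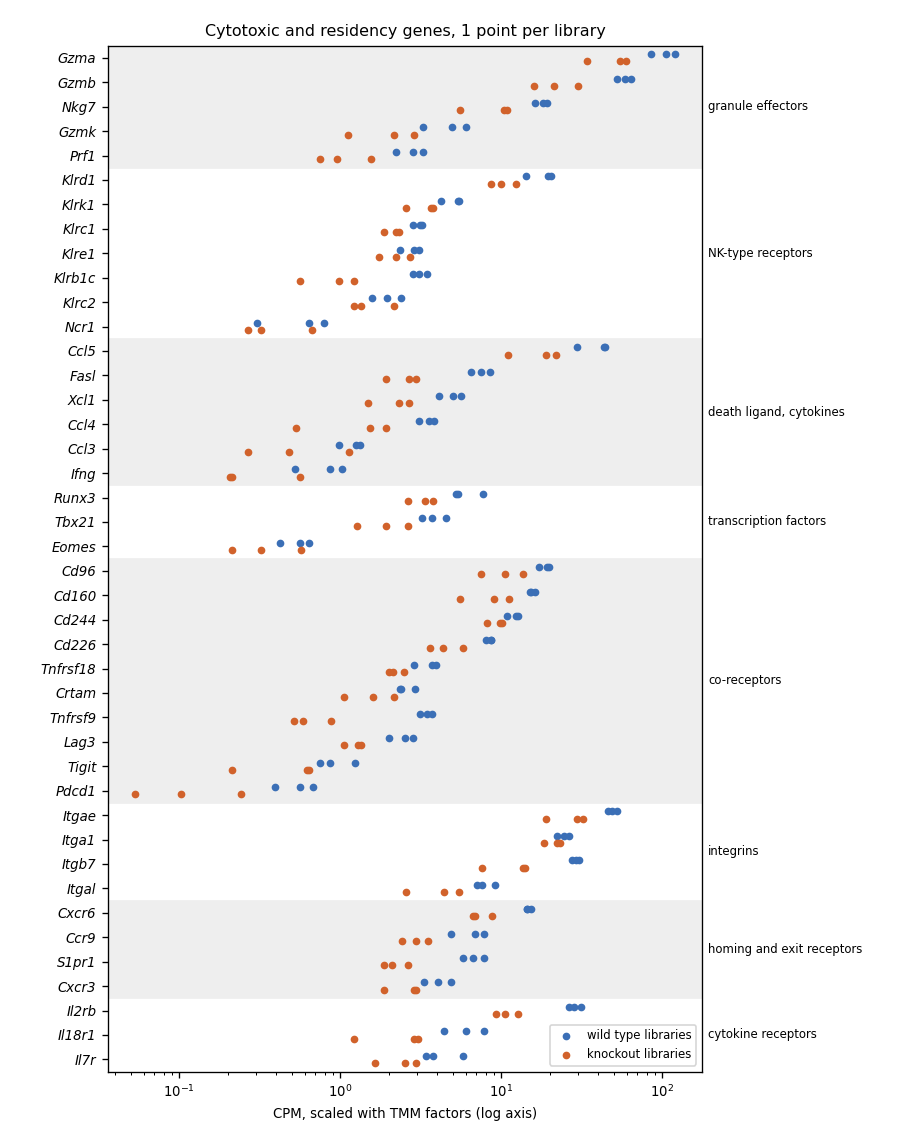
CPM of each of the 42 genes (horizontal log axis) by role, with 1 blue point per wild type library and 1 orange point per knockout library. Orange points sit to the left of blue ones for most genes, and Ncr1, Ifng, Ccl3, Eomes, Klre1, Klrc2 and Itga1 are the tested genes whose points overlap between groups.

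Their summed level was 484, 562 and 569 CPM in WT1, WT2 and WT3 and 317, 198 and 290 CPM in KO1, KO2 and KO3. Each knockout library was below each wild type library, and the knockout mean was 49.9% of that of wild type. KO2 was the lowest knockout library for 36 of the 42 genes and KO1 the highest for 26. WT1 was the lowest wild type library for 24. General markers of leukocytes moved with these genes: the summed level of 8 pan-leukocyte genes was 323 to 398 CPM in wild type and 137 to 210 CPM in knockout, and all 8 fell. T cell receptor and lineage genes had sums of 299 to 339 and 106 to 184 CPM, and 21 of 24 fell with 0 higher. In bulk RNA fewer cells of a type and less RNA per cell cannot be told apart.

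Lists of other cells did not all move in the same way. Of 12 B cell and plasma cell markers 5 fell and 0 rose, and their median log2 fold change was -1.45. Their sums were 157 to 207 CPM in wild type and 142 to 154 CPM in knockout, of which Sdc1, a gene that epithelial cells also express, made up 90.2 and 108 CPM on average. Without Sdc1, a sum added after the data were seen, they were 62.9 to 124 CPM and 38.9 to 44.5 CPM. Myeloid markers had sums of 84.3 to 98.6 CPM in wild type and 49.0 to 226 CPM in knockout, with 226 CPM in KO1. Of 11 tested 2 fell and 0 rose. Their median log2 fold change was 0.70, and 5 of the 11 were negative. Among the myeloid markers Clec9a, Xcr1 and Flt3 were at or near the floor. Stromal and endothelial markers had sums of 347 to 1000 and 232 to 472 CPM, the lowest wild type sum being that of WT3, with 3 of 11 lower, and mast cell and innate lymphoid markers had 110 to 132 and 126 to 149 CPM, with 1 lower and 1 higher of 9. The part of these other cells in the levels below was not tested.

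**Figure D2:**
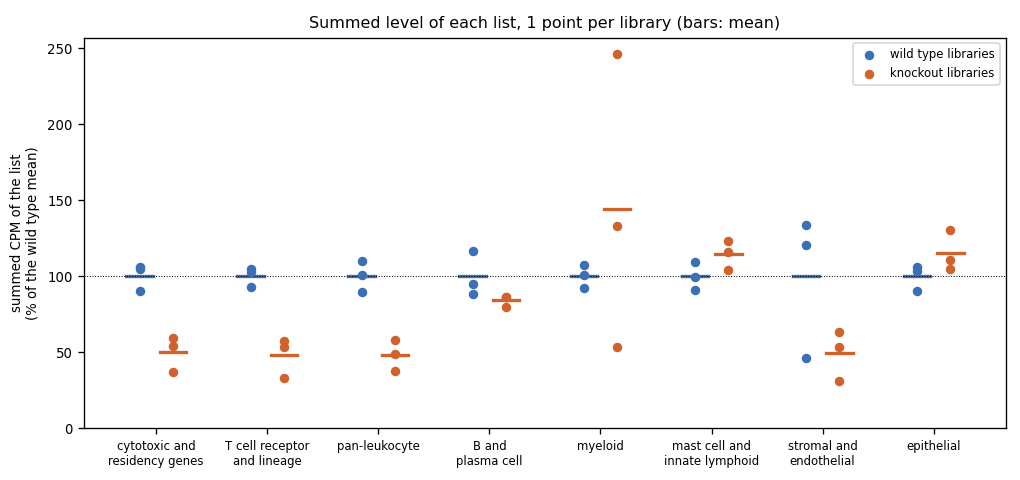
Summed CPM of each list as a percentage of its wild type mean (vertical axis), with 1 point per library, blue for wild type and orange for knockout, and a bar at each group's mean. The cytotoxic and residency genes, the T cell genes and the pan-leukocyte genes have knockout means of 49.9, 47.7 and 48.2%, the stromal and endothelial markers one of 49.1% and the epithelial markers one of 115%.

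Levels of the genes against each other were compared per length, as CPM per kilobase of exon. In wild type Gzma was the highest at 103 ± 17.5 (SD, n = 3), followed by Ccl5 at 40.6 ± 8.31 and Gzmb at 40.5 ± 3.96, which do not differ beyond their spread. Nkg7 (19.5 ± 1.62) and Klrd1 (14.1 ± 2.61) came next, then Itgae (10.7 ± 0.638) and Itgb7 (10.5 ± 0.567), again not apart beyond their spread. At the other end were Pdcd1 (0.282 ± 0.0751) and Eomes (0.130 ± 0.0269). In knockout Gzma (48.9 ± 13.3), Ccl5 (18 ± 5.87) and Gzmb (15.6 ± 4.90) stayed the 3 highest.

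All 5 granule effectors fell. Gzma and Gzmb encode serine proteases that enter a target cell through pores that perforin, the product of Prf1, makes in its membrane, and Nkg7 encodes a membrane protein of the granules. Gzmb stood at 52.2, 63.6 and 58.6 CPM in WT1, WT2 and WT3 and at 29.9, 16.0 and 21.3 CPM in KO1, KO2 and KO3, the order used from here on. The highest knockout library was well below the lowest wild type library, and the level fell 2.59-fold (log2 fold change -1.37 ± 0.21 SE, edgeR adjusted p = 0.00693). Gzma had 84.8, 106 and 120 CPM against 54.5, 34.0 and 59.2 CPM, again without overlap, a 2.11-fold fall (log2 -1.08 ± 0.22, edgeR adjusted p = 0.0200). Nkg7 had 19.1, 16.2 and 18.1 CPM against 10.4, 5.57 and 10.8 CPM, and Prf1 2.81, 3.28 and 2.21 CPM against 1.54, 0.743 and 0.960 CPM. Both are separated between groups (log2 -1.01 and -1.34, edgeR adjusted p = 0.0174 and 0.0142), with KO2 lowest. Gzmk, on chromosome 13 like Gzma, fell by 1.21 on the log2 scale (edgeR adjusted p = 0.0377). Gzmb and Nkg7 kept their calls without any single library. Gzma lost its call without WT2 (highest edgeR adjusted p = 0.0599), Prf1 without WT2, KO2 or KO3 (0.0637), and Gzmk without WT1, WT2, KO2 or KO3 (0.121). With the replicate number as a block Gzmk lost its call as well (edgeR adjusted p = 0.0539).

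Other genes of the granule and its release moved less uniformly. Of 18 tested, 6 fell, 1 rose and 11 did not pass, with a median log2 fold change of -0.53, and with 1 library left out 3 (WT2) or 2 (KO2 or KO3) fell. With library totals 4 rose, and leaving out WT1 gave 2. Srgn, which encodes the proteoglycan that packs granzymes, fell from 21.5 ± 2.25 to 9.96 ± 2.09 CPM (SD, n = 3; log2 -1.11, edgeR adjusted p = 0.00187). Sh2d2a, which encodes a T cell signalling adaptor, fell by 1.15 and Fcer1g, the gene of a signalling chain of activating receptors, fell by 0.95 on the log2 scale (edgeR adjusted p = 0.0128 and 0.0111). Sh2d2a lost its call without KO2 (edgeR adjusted p = 0.0543) and Fcer1g without KO3 (0.0566). Ctsc, the protease that activates progranzymes and that epithelial cells also express, rose by 0.60 on the log2 scale (edgeR adjusted p = 0.00383).

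Of the 7 NK-type receptors 2 fell, with a median log2 fold change of -0.53. Klrb1c encodes NK1.1, and Klrd1 encodes CD94, the partner chain of the NKG2 receptors of Klrc1 and Klrc2. Klrb1c had 3.09, 3.47 and 2.82 CPM in wild type and 0.978, 1.22 and 0.560 CPM in knockout, groups far apart (3.28-fold lower, log2 -1.72 ± 0.28, edgeR adjusted p = 0.00346), and kept its call without any single library. Klrd1 had 14.3, 19.6 and 20.4 CPM against 12.4, 8.65 and 10.0 CPM, where the highest knockout library lay close to the lowest wild type one (log2 -0.81 ± 0.17, edgeR adjusted p = 0.0101). Its call was lost without KO3 (edgeR adjusted p = 0.0597). Klrk1, the gene of the activating receptor NKG2D, had 4.21, 5.47 and 5.38 CPM in wild type and 3.76, 2.55 and 3.68 CPM in knockout. These groups did not overlap, and the difference did not pass (log2 -0.60 ± 0.21, edgeR adjusted p = 0.0737). Klrc1 had 3.23, 2.83 and 3.12 CPM against 2.21, 1.86 and 2.32 CPM (log2 -0.53 ± 0.22, edgeR adjusted p = 0.118). Klrc2 with 1.96, 1.58 and 2.39 CPM against 1.34, 1.22 and 2.16 CPM and Klre1 with 2.85, 2.34 and 3.08 CPM against 2.21, 1.75 and 2.72 CPM overlapped between groups (log2 -0.36 and -0.32, edgeR adjusted p = 0.428 and 0.391). Ncr1, the gene of the NK cell receptor NKp46, had 0.304 to 0.795 CPM in wild type and 0.265 to 0.669 CPM in knockout, from 7 to 17 and 4 to 13 counts.

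Position and sequence bear on how these receptors were counted. Of the 42 genes 7 lie on chromosome 6 of GRCm38, and Klre1, Klrd1, Klrk1, Klrc2 and Klrc1 lie between 129577905 and 129678973. Of the 50-base windows in the transcripts of Klrc1, 38.6% also occur in other genes, namely Klrc2 and Klrc3, and 16.3% of those of Klrc2. For Klrb1c the share was 17.0%, with Gm44511, Klrb1a and Klrb1b, so reads of these genes may be split or lost and their values are uncertain. Gzma, Gzmb, Prf1, Nkg7, Klrd1 and Klrk1 had a share of 0%. Elsewhere the shares above 10% were 19.9% for Ifng, 20.1% for Ccr9, 18.7% for Tnfrsf18 and 10.8% for Xcl1, mostly from genes that overlap them.

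Of the secreted and surface effectors 4 of 6 fell. Fasl, the ligand that triggers death through the receptor Fas, had 6.5, 7.47 and 8.54 CPM in wild type and 2.68, 1.91 and 2.96 CPM in knockout. The groups were far apart (3.01-fold lower, log2 -1.59 ± 0.21, edgeR adjusted p = 0.00144). Xcl1, which encodes a chemokine that draws cross-presenting dendritic cells, had 4.11, 4.98 and 5.64 CPM against 2.68, 1.49 and 2.32 CPM (log2 -1.19 ± 0.24, edgeR adjusted p = 0.00858). Both kept their call without any single library. Ccl5 had 29.7, 43.8 and 43.3 CPM against 21.9, 11.0 and 18.9 CPM, and Ccl4 3.83, 3.58 and 3.08 CPM against 1.91, 0.530 and 1.52 CPM. Both encode chemokines, and KO2 was again the lowest library (log2 -1.18 and -1.42, edgeR adjusted p = 0.0415 and 0.0216). The call of Ccl5 was lost without WT2, WT3 or KO3 (highest edgeR adjusted p = 0.106) and with the replicate block (0.139), that of Ccl4 without WT1, WT2 or KO3 (0.0721). Ccl3, which myeloid cells also express, had 0.982 to 1.32 CPM in wild type and 0.265 to 1.13 CPM in knockout (log2 -0.89, edgeR adjusted p = 0.189). Its highest knockout value was in KO1, the highest knockout library for 26 of the 42 genes, and it passed without that library. The part of myeloid cells in its level was not tested. Ifng, the gene of interferon gamma, had 0.520 to 1.03 CPM in wild type and 0.206 to 0.560 CPM in knockout, from 12 to 23 and 4 to 7 counts. Its groups overlapped in CPM, and the difference did not pass (log2 -1.40 ± 0.48, edgeR adjusted p = 0.0690), though with no filter on low counts it did (0.0386).

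**Figure D3:**
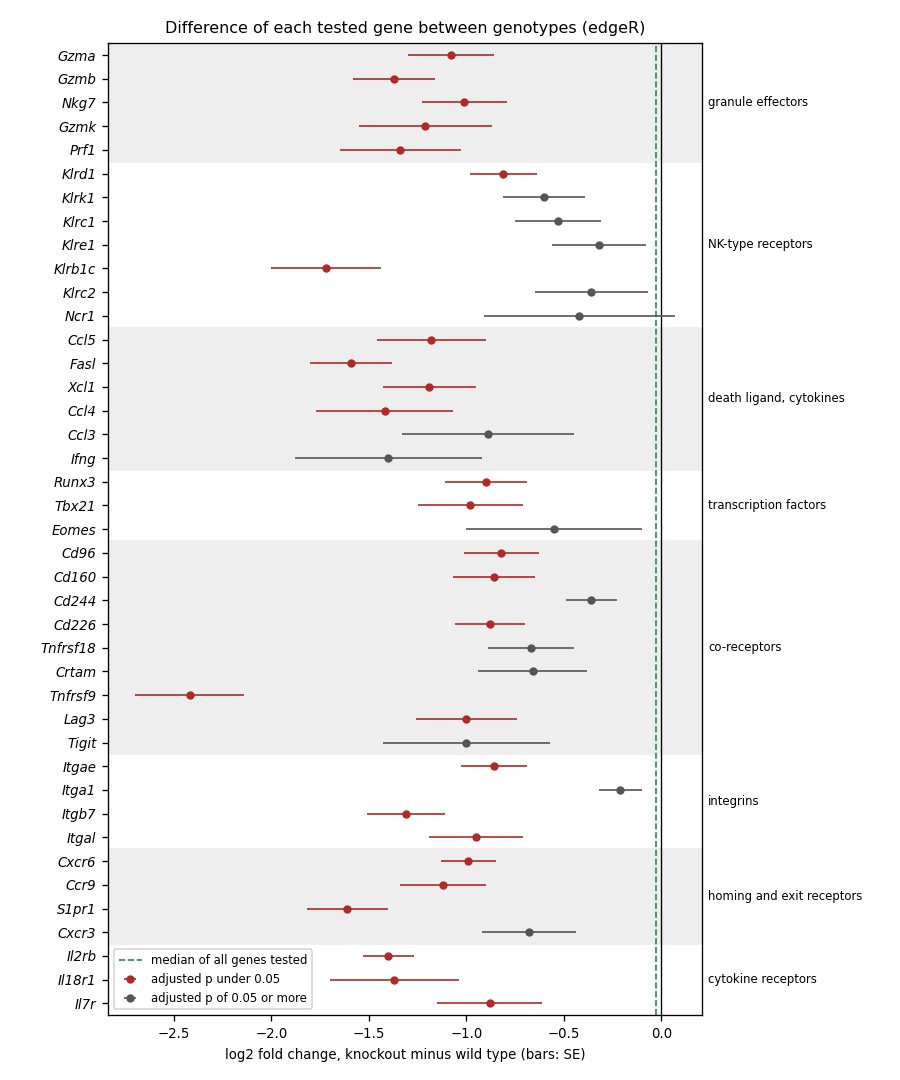
Log2 fold change, knockout minus wild type, with its SE (horizontal axis) for the 41 tested genes by role, in red where the adjusted p was under 0.05 and in grey otherwise, with a dashed line at the median of all genes (-0.03). Tnfrsf9 lies farthest out at -2.42 and Itga1 nearest to 0 at -0.21.

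Of the 3 transcription factors, Runx3 and Tbx21 fell. Runx3 had 5.24, 5.39 and 7.72 CPM in wild type and 3.76, 3.34 and 2.64 CPM in knockout (log2 -0.90 ± 0.21, edgeR adjusted p = 0.0171). Tbx21 had 3.69, 4.56 and 3.21 CPM against 2.63, 1.27 and 1.92 CPM (log2 -0.98 ± 0.27, edgeR adjusted p = 0.0327). Neither overlapped between groups, and both calls rest on single libraries: that of Runx3 was lost without WT3 or KO3 (highest edgeR adjusted p = 0.0753), that of Tbx21 without WT1, WT2, KO2 or KO3 (0.123). Eomes, at 0.421 to 0.641 and 0.212 to 0.566 CPM from 9 to 17 and 4 to 11 counts, did not pass (log2 -0.55, edgeR adjusted p = 0.435).

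Among 24 further regulators of residency and lineage 12 fell and 1 rose, with a median log2 fold change of -0.67, with library totals 3 rose, and without WT2 2 rose and 8 fell. Nr4a1, a gene induced by T cell receptor signals, fell from 16.3 ± 0.829 to 5.52 ± 1.82 CPM (log2 -1.56, edgeR adjusted p = 0.00194). Cd69, whose product holds lymphocytes in tissue by removing the exit receptor of S1pr1 from the surface, fell by 1.35 and Ikzf2, which encodes the transcription factor Helios, by 0.66 on the log2 scale (edgeR adjusted p = 0.00241 and 0.00295). Tgfbr1, a chain of the receptor for TGF-beta that epithelial cells also express, rose from 23.2 ± 1.69 to 36.2 ± 1.17 CPM (log2 0.64, edgeR adjusted p = 0.00212). Zfp683, which encodes the residency factor Hobit, had 0.645 ± 0.0767 and 0.277 ± 0.252 CPM and did not pass (edgeR adjusted p = 0.164).

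Among costimulatory and inhibitory receptors 5 of 9 tested fell, and all 9 had knockout libraries below wild type ones. Tnfrsf9 encodes 4-1BB, a receptor that activated T cells put on their surface. It had 3.13, 3.47 and 3.69 CPM in wild type, from 67 to 92 counts, and 0.515, 0.583 and 0.880 CPM in knockout, from 10 or 11 counts. Its log2 fold change was the largest of the 41 tested genes (5.33-fold lower, log2 -2.42 ± 0.28, edgeR adjusted p = 0.000785). Cd226, the gene of the activating receptor DNAM-1, had 8.04, 8.60 and 8.67 CPM against 5.77, 3.61 and 4.32 CPM (log2 -0.88 ± 0.18, edgeR adjusted p = 0.00906). Tnfrsf9 and Cd226 kept their calls without any single library. Cd96, which binds the same ligand as Cd226, had 17.2, 19.9 and 19.1 CPM against 13.7, 7.43 and 10.6 CPM, and Cd160, which binds the epithelial receptor of Tnfrsf14, had 15.3, 15.1 and 16.1 CPM against 11.1, 5.57 and 9.04 CPM. Their wild type libraries were close together and their knockout libraries spread, with KO2 lowest (log2 -0.82 and -0.86, edgeR adjusted p = 0.0190 and 0.0225). Lag3, an inhibitory receptor gene, fell by 1.00 on the log2 scale (edgeR adjusted p = 0.0232). The calls of Cd96 and Cd160 were lost without WT2, WT3 or KO3 (highest edgeR adjusted p = 0.0850 and 0.0852), and that of Lag3 without these or KO2 (0.0959).

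Receptors of this role that did not pass had smaller or less certain differences. Cd244, the gene of the SLAM family receptor 2B4, which myeloid cells and mast cells also express, had 10.9, 12.3 and 12.7 CPM in wild type and 10.1, 8.17 and 9.76 CPM in knockout (log2 -0.36 ± 0.13, edgeR adjusted p = 0.0901). Tnfrsf18, the gene of GITR, had 2.85, 3.73 and 3.95 CPM against 2.11, 2.49 and 2.00 CPM (log2 -0.67 ± 0.22, edgeR adjusted p = 0.0628). Crtam had 2.38, 2.34 and 2.91 CPM against 2.16, 1.06 and 1.60 CPM (log2 -0.66 ± 0.28, edgeR adjusted p = 0.137). In each of the 3 the groups did not overlap, by narrow margins. Tigit had 0.748 to 1.24 CPM in wild type and 0.212 to 0.640 CPM in knockout, from 16 to 33 and 4 to 12 counts (edgeR adjusted p = 0.133). Pdcd1, the gene of the inhibitory receptor PD-1, was too low for the main test, with 9 to 18 counts in wild type and 1 to 3 in knockout, where every library is at or under the floor. It entered the fits with no filter and those without a knockout library, and it fell with no filter and without KO3. It did not pass in every fit with a library left out (highest edgeR adjusted p = 0.120).

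Of the 4 integrin genes 3 fell. Itgae encodes CD103 and Itgb7 its beta chain, which also pairs with another alpha chain for entry into the gut and is carried by B cells too. Itgae had 46.2, 52.0 and 48.4 CPM in wild type and 32.4, 19.0 and 29.4 CPM in knockout (1.82-fold lower, log2 -0.86 ± 0.17, edgeR adjusted p = 0.0136). Itgb7 had 27.4, 30.5 and 29.1 CPM against 13.6, 7.64 and 14.1 CPM (2.48-fold lower, log2 -1.31 ± 0.20, edgeR adjusted p = 0.00510). The groups of both were far apart, and both kept their calls without any single library. Itgal, the gene of the alpha chain of LFA-1 on all leukocytes, had 7.11, 9.16 and 7.59 CPM against 5.46, 2.55 and 4.40 CPM (log2 -0.95 ± 0.24, edgeR adjusted p = 0.0252), a call that did not hold without WT2, WT3, KO2 or KO3 (highest edgeR adjusted p = 0.0862). Itga1, the collagen-binding chain CD49a, had 22.2, 26.2 and 24.5 CPM against 22.1, 18.5 and 23 CPM. Its groups overlapped (log2 -0.21 ± 0.11, edgeR adjusted p = 0.237), with library totals the value turned to 0.07, and fibroblasts and smooth muscle express it as well.

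Of the homing and exit receptors 3 of 4 fell. S1pr1 encodes the receptor that leads lymphocytes out of tissue and that endothelial cells also carry, and it had 5.75, 7.77 and 6.64 CPM in wild type and 2.63, 1.86 and 2.08 CPM in knockout. The groups were far apart (3.06-fold lower, log2 -1.61 ± 0.21, edgeR adjusted p = 0.00138). Pecam1 and Kdr, listed here as endothelial markers, fell as well (log2 -0.99 and -1.39, edgeR adjusted p = 0.0104 and 0.00924), as did all 8 pan-leukocyte genes. Cdh5, another listed endothelial marker, was too low for the test, with 8, 5 and 2 counts in wild type and 4, 1 and 2 in knockout. The parts of endothelial cells and of leukocytes in the falls of S1pr1 and Pecam1 were not tested. Cxcr6 had 15.4, 14.4 and 14.5 CPM against 8.70, 6.68 and 6.88 CPM (log2 -0.99 ± 0.14, edgeR adjusted p = 0.00164). Ccr9, the receptor for the gut chemokine of Ccl25, had 4.86, 6.82 and 7.76 CPM against 3.50, 2.97 and 2.40 CPM (log2 -1.12 ± 0.22, edgeR adjusted p = 0.00758). S1pr1, Cxcr6 and Ccr9 kept their calls without any single library. Cxcr6 and Ccr9 are near each other on chromosome 9 (123806475 to 123811760 and 123678439 to 123784330). Cxcr3 had 4.02, 3.32 and 4.90 CPM against 2.88, 1.86 and 2.96 CPM, did not overlap and did not pass (log2 -0.68 ± 0.24, edgeR adjusted p = 0.0800), though with no filter on low counts it did (0.0464).

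All 3 cytokine receptor genes fell. Il2rb had 26.3, 28.4 and 31.1 CPM in wild type and 12.7, 9.28 and 10.6 CPM in knockout, a wide and even gap (2.64-fold lower, log2 -1.40 ± 0.13, edgeR adjusted p = 0.000741), and kept its call without any single library. Il18r1, a chain of the interleukin 18 receptor, had 7.86, 6.03 and 4.42 CPM against 3.04, 1.22 and 2.88 CPM (log2 -1.37 ± 0.33, edgeR adjusted p = 0.0229). Il7r had 3.79, 3.43 and 5.77 CPM against 2.52, 1.64 and 2.96 CPM (log2 -0.88 ± 0.27, edgeR adjusted p = 0.0480). Il18r1 lost its call without WT2 or KO3 (highest edgeR adjusted p = 0.0679). Il7r lost it without WT1, WT3, KO1, KO2 or KO3 (highest edgeR adjusted p = 0.184) and in limma-voom (0.0655).

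Each gene was also read against the sum of Cd3d, Cd3e and Cd3g, which encode chains of the T cell receptor complex. That sum was 1151, 1493 and 1348 counts in the wild type libraries and 610, 329 and 425 counts in the knockout libraries. Most of it came from Cd3g, with 640, 819 and 724 counts against 315, 169 and 263. The fall of Cd3g itself did not pass (log2 -1.01 ± 0.28, edgeR adjusted p = 0.0570). On this scale 29 of the 41 genes overlapped between groups. In 5 of 41 every knockout library lay below every wild type library, a pattern found in 0.178% of all genes, and in 7 of 41 above, found in 75.3% of all genes. The exact permutation p was 0.1, 2-sided, for these 12, the smallest that 3 against 3 libraries can give, and the smallest adjusted over the 41 was 0.342, so that none passed.

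Gzma overlapped between groups, with 158, 188 and 205 counts per 100 CD3 counts in wild type and 173, 195 and 174 in knockout. So did Nkg7, with 35.4, 28.7 and 31.0 against 33.1, 31.9 and 31.8. Itgae, with 85.8, 92.4 and 82.8 against 103, 109 and 86.6, overlapped as well. The 5 genes below were Tnfrsf9, S1pr1, Fasl, Gzmb and Itgb7. Tnfrsf9 had 5.82, 6.16 and 6.31 counts per 100 CD3 counts in wild type and 1.64, 3.34 and 2.59 in knockout, a log2 ratio of -1.27, and Fasl 12.1, 13.3 and 14.6 against 8.52, 10.9 and 8.71, one of -0.50. For Gzmb (97.0, 113 and 100 against 95.2, 91.5 and 62.6) and S1pr1 (10.7, 13.8 and 11.4 against 8.36, 10.6 and 6.12) the nearest libraries of the groups almost met.

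The 7 genes above were Itga1, Klre1, Cd244, Klrc2, Klrc1, Klrk1 and Cxcr3. Lying above was the common pattern on this scale, found in 75.3% of all genes. Itga1 had 41.3, 46.6 and 42.0 against 70.3, 106 and 67.5 counts per 100 CD3 counts, and Cd244 20.2, 21.9 and 21.7 against 32.3, 46.8 and 28.7. Klre1 had 5.30, 4.15 and 5.27 against 7.05, 10.0 and 8. KO2, with the fewest CD3 counts among the 3, was the highest in each of these. The number above was 15 without KO3 and the number below was 9 without WT3. Read against the 8 pan-leukocyte genes instead, 5 genes were below (Gzmb, Fasl, Tnfrsf9, S1pr1 and Il2rb) and 8 above (Klrd1, Klrk1, Klre1, Klrc1, Cd244, Cd96, Itga1 and Cxcr3). Itgb7 and Klrc2 overlapped between groups with that reference. The pan-leukocyte sum was 6902 to 10557 counts in wild type and 2197 to 4086 in knockout. Shares over all genes were not counted for this reference, nor with a library left out. The numbers above and below in those settings are therefore not read as a result about these genes.

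**Figure D4:**
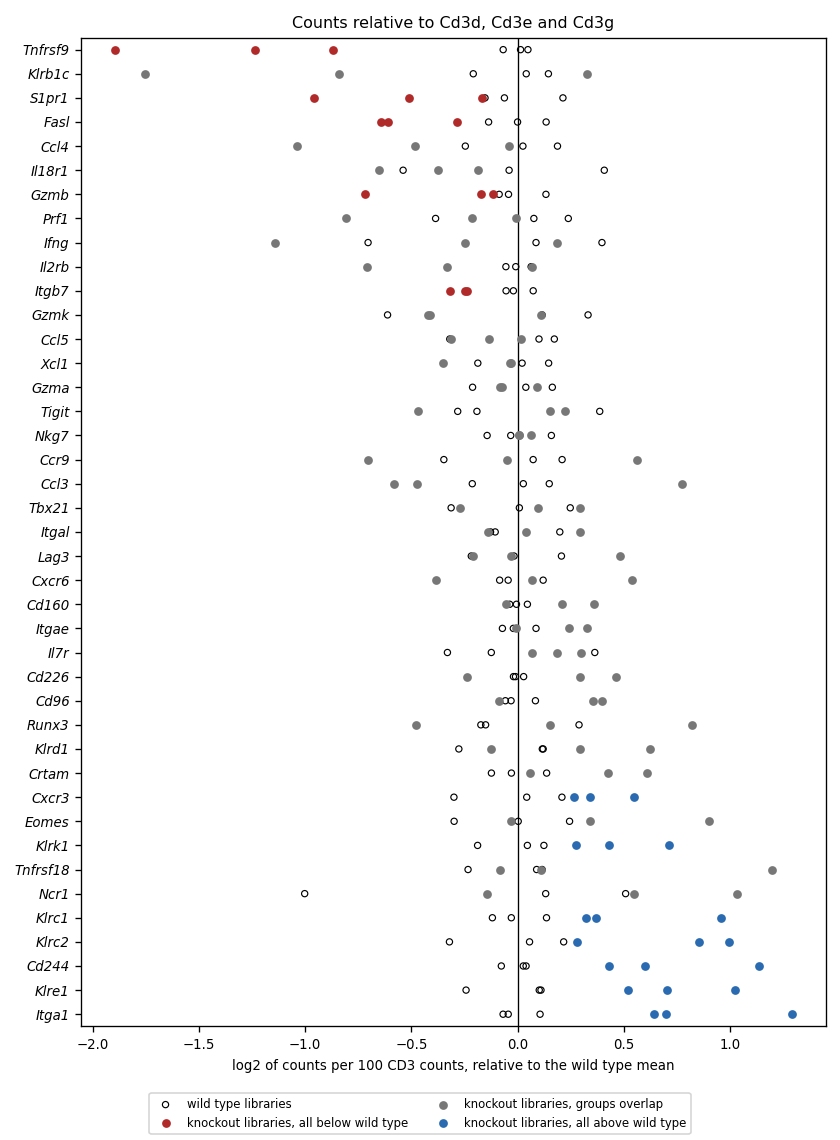
Counts per 100 counts of Cd3d, Cd3e and Cd3g, as log2 of the ratio to the wild type mean (horizontal axis), for the 41 tested genes. Open points are wild type libraries, filled points knockout libraries, red where all 3 lie below wild type (5 genes), blue where all lie above (7 genes) and grey where the groups overlap (29 genes).

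Among the T cell genes Cd8b1, the gene of the CD8 beta chain found on conventional CD8 T cells, fell from 7.38 ± 1.72 to 1.39 ± 0.346 CPM (log2 -2.40, edgeR adjusted p = 0.000785). Trbc2, a constant region of the beta chain, fell by 1.16 and Lck by 0.96 on the log2 scale (edgeR adjusted p = 0.00147 and 0.00164). For Cd8a, which gamma-delta and other unconventional intraepithelial lymphocytes express without the beta chain, the difference did not pass (39.1 ± 4.29 and 20.0 ± 7.33 CPM, log2 -0.98, edgeR adjusted p = 0.0695), though in DESeq2 and limma-voom it did. Trdc, the constant region of the delta chain, fell by 0.94 (edgeR adjusted p = 0.0103). Whether these falls differ from each other was not tested.

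Genes of the epithelium and tissue whose products bind or feed these lymphocytes were read beside them. Of 43 partner genes 37 were tested, of which 9 fell, 2 rose and 26 did not pass, with a median log2 fold change of -0.08. These counts depend on the scaling: with library totals 2 fell and 11 rose. With 1 library left out 2 (KO2), 4 (WT2 or KO3) or 5 (WT3) fell, and leaving out WT1 gave 4 that rose. Il15, the cytokine read through Il2rb, had 27.4, 21.9 and 29.5 CPM in wild type and 18.6, 15.4 and 15.8 CPM in knockout, with no overlap (log2 -0.66 ± 0.13, edgeR adjusted p = 0.00727). Icam1, the ligand of LFA-1, had 7.20, 7.73 and 5.72 CPM against 3.45, 2.86 and 4.48 CPM (log2 -0.96 ± 0.20, edgeR adjusted p = 0.0103). Btnl6, a butyrophilin-like gene of the gut epithelium whose product helps to keep certain gamma-delta intraepithelial lymphocytes, had 145, 137 and 174 CPM against 107, 98.1 and 111 CPM. It fell by 0.53 on the log2 scale (edgeR adjusted p = 0.0104), a call lost without KO2 (0.0509) and with library totals.

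In the other direction Raet1e, a stress-induced ligand of NKG2D, rose from 1.5, 1.66 and 1.65 CPM in wild type to 2.99, 3.34 and 3.28 CPM in knockout (log2 0.99 ± 0.22, edgeR adjusted p = 0.0115). The NKG2D ligands H60c and Ulbp1 did not pass (log2 0.13 and 0.43, edgeR adjusted p = 0.868 and 0.383), and H60b was too low for the test. Nectin3, an adhesion molecule of epithelial junctions, rose from 53.1 ± 3.60 to 80.2 ± 6.68 CPM (log2 0.60, edgeR adjusted p = 0.00347). Partners near 0 included Cdh1, the E-cadherin that CD103 binds, at 551 ± 107 and 587 ± 25.7 CPM (log2 0.09, edgeR adjusted p = 0.712), and Ccl25, the ligand of Ccr9, at 7.5 ± 1.36 and 7.84 ± 0.278 CPM (log2 0.06, 0.815). Nectin2, a ligand of DNAM-1, had a log2 fold change of 0.01 and Il18 one of -0.16. Fas, Cxcl16, Cd48 and Cd274, partners of Fasl, Cxcr6, Cd244 and PD-1, fell by 0.52, 0.58, 0.76 and 0.49 on the log2 scale (edgeR adjusted p = 0.0310, 0.0498, 0.0207 and 0.0339). None of these 4 passed with library totals, nor Fas and Cxcl16 with the replicate block. The call of Fas failed without WT1, WT2, WT3, KO1 or KO2, that of Cxcl16 without any library but KO1, that of Cd48 without WT2, WT3, KO2 or KO3 and that of Cd274 without WT1, WT2, KO2 or KO3 (highest edgeR adjusted p = 0.0933, 0.164, 0.0706 and 0.122). Lymphocytes themselves express Cd48.

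**Figure D5:**
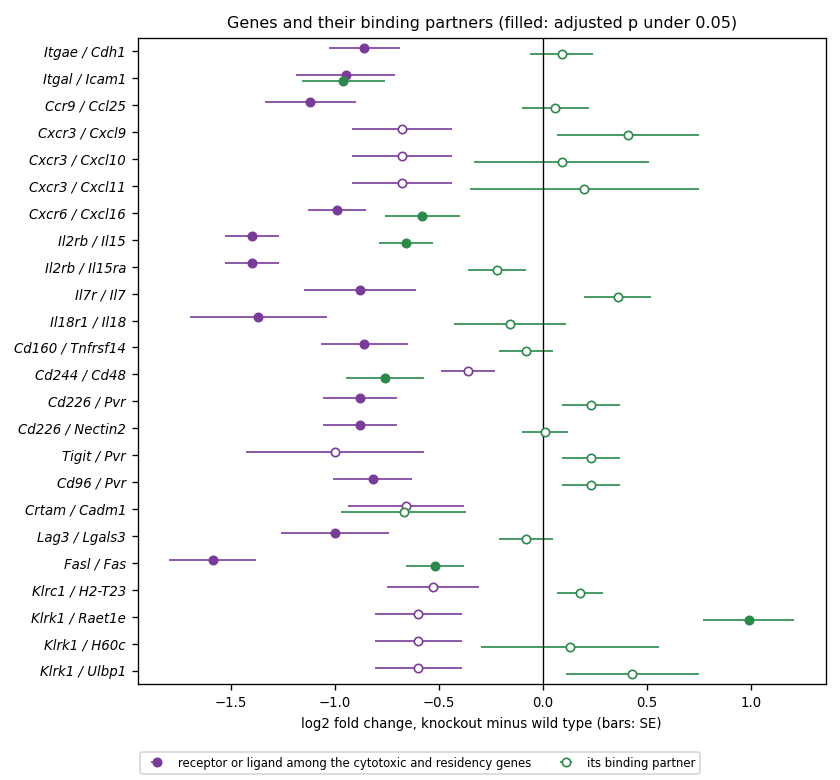
Log2 fold change, knockout minus wild type, with its SE (horizontal axis) for 24 pairs of a cytotoxic or residency gene (purple) and its binding partner (green), filled where the adjusted p was under 0.05. All purple points lie below 0, while the green points run from -0.96 for Icam1 to 0.99 for Raet1e.

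In the authors' deposited table, made with DESeq2 from the same libraries, 37 of the 42 genes are listed, 27 of them lower and 0 higher at an adjusted p under 0.05. These were the same 27 genes that fell in edgeR. The table holds only genes with reads in each of the 6 libraries. Ncr1, Ifng, Eomes, Tigit and Pdcd1 are not listed although they too have reads in each library, so that rule does not account for them. In DESeq2 as run here the 37 listed genes had an adjusted p and these had none. Why they are not listed was not tested.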

How the data were processed

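RNA-seq was deposited for 6 libraries of the washed colon fraction, 3 wild type and 3 Lingo3-/-. Per the submitters' processing notes the authors used Trimmomatic 0.39, STAR, HTSeq and DESeq2 with GRCm38; no source used here gives other versions, the strand setting or the annotation release. Raw counts, as the authors deposited them, stand in a table of counts per Ensembl gene, and its HTSeq summary lines (53.6 to 60.1% of reads per library, among them 32.2 to 36.9% without a unique alignment) were left out. The deposited comparison table holds, per the file headers, DESeq2 log2 fold changes, a Wald score, p-values and a normalized signal per library, and was used only for a count of calls. Symbols and positions came from GENCODE M21 (GRCm38), which held 45229 of 46078 identifiers. Genes were kept by filterByExpr (minimum count 10, minimum total 15) and entered the quasi-likelihood test of edgeR with robust estimation, genotype as the only term, TMM factors, Benjamini-Hochberg adjustment over 16856 genes and a threshold of 0.05, in R 4.3.3 with edgeR 4.0.16, limma 3.58.1 and DESeq2 1.42.0. The fit was tested on simulated data. Ratios to CD3 were compared with a 2-sided exact permutation test over libraries. Counts carry no molecular identifiers, so the floor covers counting error only.

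The genes and lists were chosen with earlier results of these data known. Values per library were given for up to 4 genes of each role with the smallest adjusted p, past the threshold and with a mean of at least 0.5 CPM, and for each other gene at 1 CPM or more, and in each other list up to 3 genes a direction were named, with binding partners added. Cd8a, Trdc, Pecam1, Kdr and Cdh5 were named after their values were seen. Alternatives are given in the closing section.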

Additional observations from a re-analysis of the deposited data

How the results depend on the processing

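Alternatives were RLE or upper-quartile factors, library totals only, DESeq2, limma-voom, no filter, genes at a mean CPM of 1 or more, a replicate block and each library left out in turn. Nuclear protein-coding genes only and counts thinned to the smallest library were added after the data were seen. The count of 27 cytotoxic and residency genes that fell was 25 to 30 under each setting that kept all libraries at full depth, except library totals (17). With no filter it was 30, with Pdcd1 among them. Thinned the count was 24, and without single libraries 15 to 27, with Pdcd1 among the 15 without KO3. Under each of these settings 0 rose. With library totals the single gene of the 41 that turned direction was Itga1 (0.07), 420 genes of all fell and 5415 rose, 2 partner genes fell and 11 rose, 4 granule genes, 3 regulators and 9 epithelial markers rose. With no filter 1675 genes of all and 11 granule genes fell, and 2 granule genes and 2 regulators rose. Without single libraries the genes of all that fell were 413 to 1070 and those that rose 711 to 1677; partners that fell were 2 to 8 and that rose 2 to 4, granule genes 2 to 7 and 1 to 2, regulators that rose 1 to 2 and epithelial markers that rose 1 to 5. Relative to CD3, 5 to 9 genes lay below and 7 to 15 above, and the share over all genes was counted only with all libraries. The cause of these shifts was not tested. With the replicate block 25 of these genes fell, the calls of Gzmk and Ccl5 being lost; same-numbered libraries correlated at -0.117 to -0.0102, and no library correlated best with its own number. Depth limits Pdcd1, Eomes, Ncr1, Ifng, Tigit and Ccl3, each with under 40 counts in every library.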
